A study of Mus musculus with 10 samples.

Results

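The genes that define the B cell lineage were examined in DNA methylation data from mouse lung. The members were Cd79a, Cd79b, Ms4a1, Pax5, Cd22, Blk, Ebf1, Cr2 and Pou2af1, chosen by name as B cell identity genes, with earlier results of these data known. Their windows were all deposited windows of 1000 bp, placed every 500 bp, that overlapped the RefSeq span of a member on GRCm38 extended by 5 kb on each side. This gave 216 of 446336 windows, of which 207 had at least 20 CpG calls in all 10 mice. Of the 9 genes, 7 had windows. Ms4a1, which encodes the B cell surface protein CD20, and Pou2af1, which encodes a coactivator of octamer factors, had no deposited window in this range, so no methylation value is given for them.

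B cells are made when the transcription factor EBF1 opens the B cell program and, with PAX5, switches on the genes of the B cell receptor and keeps other lineages closed. CD79A and CD79B are the signalling chains of that receptor, BLK is a kinase of the SRC family that acts below it, CD22 is an inhibitory coreceptor, and complement receptor CR2 binds complement fragments and lowers the threshold of activation. Promoters and enhancers of such genes usually lose methylation in the cells that use them and often stay methylated elsewhere, so their level in whole lung is an average over many cell types.

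Lung DNA came from female BALB/c mice purchased at 8 weeks of age. The saline group (n = 3) received saline only. The OVA-induced group (n = 3) was sensitized with 50 µg of ovalbumin (OVA) in alum on days 0 and 7 and challenged through the nose with 25 µg on 4 days from day 12. The DSE-treated group (n = 4) had the same sensitization and challenge and received 200 mg/kg of an ethanol extract of Descurainia sophia seeds (DSE) by mouth on days 9 to 15. The labels call this group herb, and no group received DSE without OVA. The paper's methods name oral vehicle as well as DSE for its treatment groups on days 9 to 15. They do not say whether the OVA-induced mice sequenced here received vehicle. OVA-induced and DSE-treated mice are together called OVA-exposed below (7 mice). The libraries were SureSelect Methyl-seq, in which probes capture chosen regions before bisulfite sequencing, so a gene is seen only where probes or stray fragments cover it. Since whole lung was used, a change in the share of a cell type and a change of methylation within a cell type cannot be told apart, and methylation gives no direct check of the lung label.

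Each mouse had 306656737 to 410836272 CpG calls over all windows, most of them counted in overlapping windows. The mean methylation of the windows was 51.4% to 52.1% in saline, 52.4% to 53.2% in OVA-induced mice and 52.3% to 53.4% in DSE-treated mice. In member windows a gene's median depth per window ran from 306 calls in Cd79b to 1234 in Cr2. At 20 calls and 50% methylation the 95% Wilson interval runs from 29.9% to 70.1%, and at 574 calls from 45.9% to 54.1%. Such intervals hold only the error of counting.

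Before the values, the DNA behind them is shown. The following 200-base stretches lie inside windows that differed between groups, outside annotated exons, and are written from 5′ to 3′ on the strand of the gene, with every CpG, the unit whose methylation was measured, in capitals. The stretch of Cd79a lies at chr7:24900730-24900929 (plus strand) in an intron near the end of the gene, those of Ebf1 at chr11:44684556-44684755 and chr11:44924576-44924775 (plus strand) in introns 6 and 10, that of Pax5 at chr4:44602710-44602909 (minus strand) in intron 7, and that of Blk at chr14:63411998-63412197 (minus strand) in intron 1, all on GRCm38.p6.
Cd79a intron: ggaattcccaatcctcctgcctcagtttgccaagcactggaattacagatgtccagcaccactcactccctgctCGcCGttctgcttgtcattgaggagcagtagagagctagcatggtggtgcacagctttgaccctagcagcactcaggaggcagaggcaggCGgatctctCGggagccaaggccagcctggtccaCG
Ebf1 intron 6: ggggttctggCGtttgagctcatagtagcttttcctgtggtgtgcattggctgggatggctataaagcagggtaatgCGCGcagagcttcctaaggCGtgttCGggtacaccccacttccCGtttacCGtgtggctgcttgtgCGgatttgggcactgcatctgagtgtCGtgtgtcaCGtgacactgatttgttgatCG
Ebf1 intron 10: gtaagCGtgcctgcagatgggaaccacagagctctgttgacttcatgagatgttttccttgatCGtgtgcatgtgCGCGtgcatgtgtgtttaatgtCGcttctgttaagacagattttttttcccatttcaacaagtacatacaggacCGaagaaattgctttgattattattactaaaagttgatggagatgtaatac
Pax5 intron 7: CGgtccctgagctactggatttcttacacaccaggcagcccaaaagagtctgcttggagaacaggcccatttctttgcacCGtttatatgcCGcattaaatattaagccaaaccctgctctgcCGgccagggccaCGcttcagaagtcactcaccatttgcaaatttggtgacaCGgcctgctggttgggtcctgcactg
Blk intron 1: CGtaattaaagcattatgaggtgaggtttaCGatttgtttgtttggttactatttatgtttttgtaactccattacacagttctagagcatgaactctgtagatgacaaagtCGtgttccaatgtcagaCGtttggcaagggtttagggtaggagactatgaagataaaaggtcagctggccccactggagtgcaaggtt

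The stretch of Ebf1 intron 6 held 11 CpGs in 200 bases, those of Ebf1 intron 10 and Pax5 6 each, that of Cd79a 5 and that of Blk 4. For contrast, the 250 bases before the start sites of Cd79a (chr7:24897247-24897496, plus strand), Pax5 (chr4:44710695-44710944, minus strand) and Ebf1 (chr11:44617850-44618099, plus strand) are given from the RefSeq promoter table of the same build, again with CpGs in capitals.
Cd79a promoter: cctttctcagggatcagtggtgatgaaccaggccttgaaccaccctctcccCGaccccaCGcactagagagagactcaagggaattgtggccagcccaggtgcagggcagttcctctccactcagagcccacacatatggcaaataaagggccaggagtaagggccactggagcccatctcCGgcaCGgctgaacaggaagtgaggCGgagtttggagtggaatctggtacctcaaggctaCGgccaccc
Pax5 promoter: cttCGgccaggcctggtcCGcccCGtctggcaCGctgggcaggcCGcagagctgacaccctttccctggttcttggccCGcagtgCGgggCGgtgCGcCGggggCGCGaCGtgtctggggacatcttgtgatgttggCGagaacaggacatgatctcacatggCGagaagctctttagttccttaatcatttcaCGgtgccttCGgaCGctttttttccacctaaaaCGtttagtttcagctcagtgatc
Ebf1 promoter: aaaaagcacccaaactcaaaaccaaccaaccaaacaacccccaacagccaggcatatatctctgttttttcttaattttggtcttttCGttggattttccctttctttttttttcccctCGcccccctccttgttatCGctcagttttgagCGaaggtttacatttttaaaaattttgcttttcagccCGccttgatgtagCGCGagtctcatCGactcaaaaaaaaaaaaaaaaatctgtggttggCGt

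The Pax5 promoter held 19 CpGs in these 250 bases, against 9 at Ebf1 and 6 at Cd79a. Promoter sequences of 6 members were in the table (Cd79a, Cd22, Cr2, Ebf1, Pax5 and Pou2af1, with 2 starts for Ebf1). Searched on both strands from 250 bases before to 50 after the start, none of these 7 sequences held the octamer ATGCAAAT, which 1.74% of 32851 mouse promoters hold, or the PU.1 site GAGGAAGT, held by 3.20%. The EBF core CCCNNGGG, which reads alike on both strands, was found at Cd22 and at 13.7% of all promoters. The E-box CANNTG, also palindromic, was found in all of them but the first Ebf1 start and in 72.3% of all promoters. These matches are a description of the letters in the window.

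Member windows, 91 of them at Pax5 and 80 at Ebf1, were less methylated in saline lung than the deposited windows at large. Their median was 48.4%, against 57.7% over all windows. Of the 216 windows, 57 lay under 20%, 133 between 20% and 80%, and 26 over 80%, so that 12.04% were highly methylated against 23.2% of all windows. Low methylation went with CpG density. Of 63 windows with at least 20 CpGs, 37 lay under 20%, and of 153 windows with fewer CpGs, 20 did. By position, 164 windows lay in gene bodies, 23 within 1000 bp of the start of a RefSeq transcript, 14 further upstream and 15 downstream, and 22 also overlapped another RefSeq gene.

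**Figure D1:**
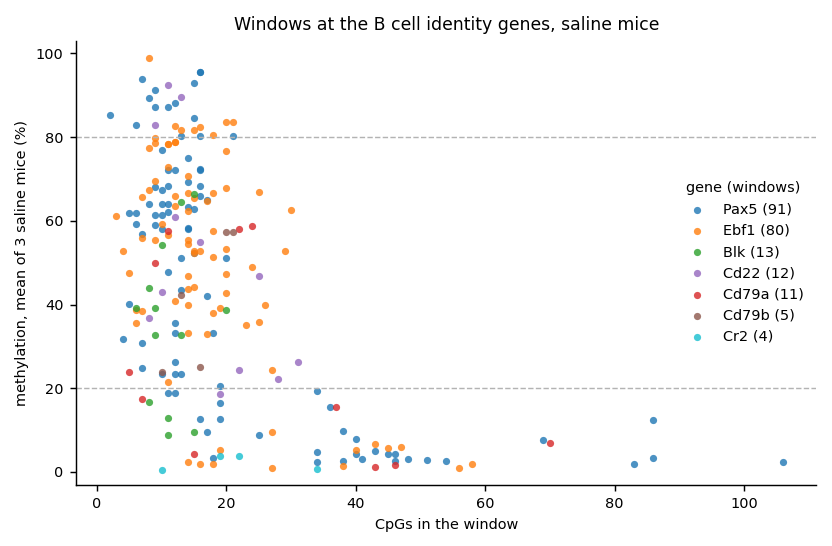
Methylation in saline lung (vertical axis, mean of 3 mice, %) against the number of CpGs in the window (horizontal axis) for the 216 windows at 7 B cell identity genes, coloured by gene, with dashed lines at 20% and 80%. Of the 63 windows with at least 20 CpGs, 37 lie under 20%, and the windows over 80% hold few CpGs.

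The window centred nearest the Ebf1 start was nearly unmethylated, and that nearest the Pax5 start was at 15.2% to 20.3%. By contrast, that of the receptor chain Cd79a was more than 55% methylated in every mouse. Around the Ebf1 start (chr11:44617501-44618500, exon 1, 56 CpGs) the saline mice had 0.890%, 1.04% and 0.771%, the OVA-induced mice 0.721%, 0.200% and 0%, and the DSE-treated mice 2.08%, 2.54%, 0.474% and 1.23%. All 10 mice were under 3%. Every OVA-induced mouse was below every saline mouse (exact permutation p = 0.1, the smallest value that 3 mice against 3 can give), and DSE-treated mice overlapped both groups. The OVA-induced values lay close to 0% and came from 1109, 501 and 517 calls, and limma's adjusted p was 0.184. The neighbouring window upstream was at 0.890% ± 0.425 in saline (SD, n = 3). The neighbouring window downstream (chr11:44618001-44619000, 58 CpGs) also holds the start, and there the groups overlapped. It had 2.23%, 1.70% and 1.97% in saline and 1.87%, 2.01% and 0.974% in OVA-induced mice (exact permutation p = 0.5).

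The region before the Pax5 start was also low. In the 8 windows next upstream of the window centred nearest the start, the saline means ran from 2.51% to 4.97%. The first of these, centred at -0.306 kb, also holds the start site. The window centred nearest the start (chr4:44710001-44711000, exon 1 and intron 1, 36 CpGs, 2540 to 3393 calls) was higher. There the saline mice had 15.5%, 15.9% and 15.2%, the OVA-induced mice 19.4%, 18.3% and 17.8%, and the DSE-treated mice 18.8%, 20.3%, 18.6% and 17.8%. Every OVA-exposed mouse was above every saline mouse, by 3.15 percentage points on average (exact permutation p = 0.0167, the smallest for 3 mice against 7). The difference stayed under the 10 points required for a call, and limma's adjusted p over all windows was 0.0942. A CpG-dense window in intron 1, centred 6.19 kb into the gene and overlapping the gene 5730488B01Rik (chr4:44704001-44705000, 83 CpGs), had the lowest saline level of the gene, at 1.65%, 1.58% and 2.28%. The OVA-induced mice had 2.36%, 2.94% and 2.80% there and the DSE-treated mice 2.54%, 2.35%, 3.48% and 3.14%, again all above saline (exact permutation p = 0.0167, limma adjusted p = 0.0725). This window was picked for its low saline mean, which favours that order, so its p-values cannot be read as a fair test.

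The Cd79a start (chr7:24897001-24898000, exon 1 and intron 1, 22 CpGs, 586 to 811 calls) stood at 55.3%, 62.7% and 55.8% in saline, 60.3%, 60.5% and 55.6% in OVA-induced, and 63.7%, 56.1%, 63.0% and 62.4% in DSE-treated mice. The groups overlapped throughout, and DSE-treated mice differed from saline by 3.52 percentage points of the pooled calls (limma adjusted p = 0.491). The Cd79b start (chr11:106314001-106315000) was covered by only 15 to 34 calls per mouse, with values from 16.1% to 60.0% and no order by group. The better covered windows centred 0.562 and 1.06 kb into the gene were at 25.1% ± 5.12 and 24.0% ± 5.88 in saline (SD, n = 3). The Cr2 start (chr1:195176501-195177500, exon 1 and intron 1, 892 to 1535 calls) was low at 4.13%, 3.81% and 3.47% in saline, 3.28%, 2.71% and 2.99% in OVA-induced, and 2.67%, 2.89%, 3.21% and 4.56% in DSE-treated mice. Here all OVA-induced mice lay below all saline mice (exact permutation p = 0.1), and DSE-treated mice overlapped both. No window over the starts of Blk or Cd22 was deposited.

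Away from the starts the levels of each gene spread widely. The extremes of saline means were 0.890% and 99.0% in Ebf1, 1.84% and 95.4% in Pax5, 18.5% and 92.4% in Cd22, 8.81% and 66.4% in Blk, and 1.126% and 58.8% in Cd79a. The lowest Cd79a window lay in its downstream flank, where it overlaps Arhgef1 (chr7:24903501-24904500), and the lowest Blk window lay in exon 13, where Gm36165 overlaps (chr14:63372001-63373000). The highest Cd22 window lay in intron 8 (chr7:30871501-30872500), and the highest Blk window in intron 1 (chr14:63410501-63411500). The 2 Cr2 windows downstream of the gene, which overlap the neighbouring gene Cr1l, were under 1% in saline. Replicate spread was moderate. The median SD over windows of a gene ran from 0.330 to 3.37 percentage points in saline, from 0.285 to 2.57 in OVA-induced and from 0.640 to 2.94 in DSE-treated mice, lowest in Cr2 in all groups.

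**Figure D2:**
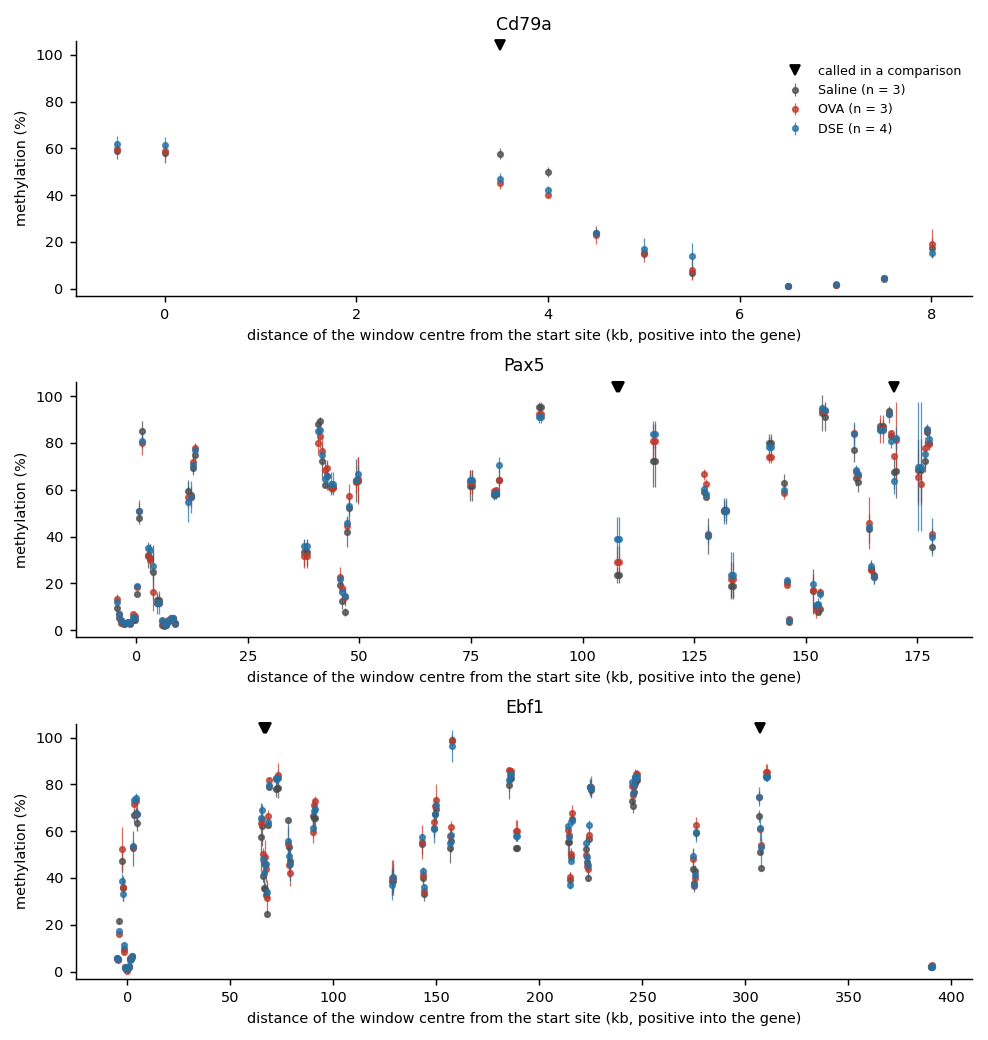
Methylation (%) of the windows of Cd79a, Pax5 and Ebf1 against the distance of the window centre from the start site (kb), as mean ± SD over 3 saline mice, 3 OVA-induced mice and 4 DSE-treated mice. Triangles mark the windows called in any of the 3 comparisons. The groups lie close together over most windows. The start of Ebf1 is near 0, and the window centred nearest the Pax5 start is at 15.5% in saline. The called windows lie at 3.5 kb in Cd79a, at 66.4 to 67.4 kb and 307 kb in Ebf1, and at 108 and 170 kb in Pax5.

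The first question was what OVA exposure did to these genes. In OVA vs. saline, 3 of 213 tested member windows were hyper methylated and 1 was hypo methylated, by a likelihood ratio test on pooled calls with a Benjamini-Hochberg adjusted p under 0.01 and at least 10 percentage points. These shares, 1.41% and 0.469%, lie under the 4.75% and 2.56% of all windows called in these directions. The 3 hyper methylated windows overlapped each other in intron 6 of Ebf1, and the hypo methylated window was at the end of Cd79a. The median difference of member windows was 1.08 percentage points, beside 0.732 over all windows. The likelihood ratio test treats every call as independent, so limma on M-values of the single mice was set beside it: 4 of 207 member windows had an adjusted p under 0.05 in OVA vs. saline, with 5.22% over all windows.

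The Cd79a window (chr7:24900501-24901500, exons 4 and 5 with introns 3 and 4, 11 CpGs) held the clearest difference. The saline mice had 55.6%, 57.02% and 60.3%, the OVA-induced mice 48.1%, 43.3% and 44.0%, and the DSE-treated mice 44.3%, 47.2%, 49.9% and 46.5%, from 570 to 848 calls each. Every OVA-exposed mouse was below every saline mouse, and OVA-induced and DSE-treated mice overlapped. In pooled calls OVA-induced mice were 12.6 percentage points lower than saline (difference -12.59, adjusted p = 5.01e-15) and DSE-treated mice 10.8 points lower (difference -10.82, adjusted p = 5.82e-13). With the spread between mice, limma gave adjusted p-values of 0.0226 and 0.0205, and 0.00903 for OVA-exposed against saline. The DSE call was lost without saline mouse 3 (-9.38 points) or DSE-treated mouse 1 (-9.88 points). The next window, which overlaps it by 500 bp (chr7:24901001-24902000), showed the same order, with 48.9%, 48.5% and 52.5% in saline, 41.0%, 39.4% and 39.9% in OVA-induced and 40.8%, 42.0%, 44.7% and 41.7% in DSE-treated mice. Its differences of -9.95 and -7.77 points missed the 10-point limit, and limma's adjusted p for OVA-exposed against saline was 0.0157. The window after that, in exon 5, was at 23.9% ± 1.02 in saline, 23.0% ± 3.78 in OVA-induced mice and 24.0% ± 1.79 in DSE-treated mice, with overlap.

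In Ebf1 the direction was the opposite. The window 66.9 kb into the gene (chr11:44684501-44685500, intron 6, 23 CpGs, 595 to 1032 calls) had 35.9%, 32.5% and 37.2% in saline, 41.7%, 56.0% and 49.4% in OVA-induced, and 40.6%, 48.3%, 42.9% and 50.9% in DSE-treated mice. All OVA-exposed mice were above all saline mice, while the SD was 7.14 and 4.74 points in OVA-induced and DSE-treated mice and 2.47 in saline mice. OVA-induced mice were 14.1 points above saline in pooled calls (adjusted p = 1.36e-21), and DSE-treated mice 10.4 points above (adjusted p = 7.15e-15). Limma's adjusted p was 0.0610 for OVA vs. saline, 0.0900 for DSE vs. saline and 0.0377 for OVA-exposed against saline. Without OVA-induced mouse 2 the first difference was 9.66 points and no longer called, and the DSE call was lost without saline mouse 2 (9.15 points) or DSE-treated mouse 2 (9.58) or 4 (8.59).

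The following window (chr11:44685001-44686000, 17 CpGs) had 31.7%, 32.8% and 34.2% in saline, 38.0%, 44.4% and 49.0% in OVA-induced, and 43.0%, 48.2%, 42.1% and 50.2% in DSE-treated mice. Again the exposed mice lay apart from saline, with differences of 10.5 points for OVA-induced and 13.0 points for DSE-treated mice, and limma's adjusted p for OVA-exposed against saline was 0.0199. Its OVA call was lost without saline mouse 1 or OVA-induced mouse 2 or 3 (8.44 to 9.87 points). The first called window of this run (chr11:44684001-44685000) had 38.0%, 31.96% and 37.8% in saline and 42.8%, 47.4% and 49.6% in OVA-induced mice. DSE-treated mice had 36.9%, 45.7%, 40.0% and 45.9% there and overlapped saline, and the OVA call was lost without saline mouse 2 or OVA-induced mouse 2 or 3 (8.52 to 9.72 points). Over the 9 windows from 64.9 to 68.9 kb, a stretch chosen after its values were seen, group means of OVA-induced and of DSE-treated mice were above saline in all 9, by 2.91 to 13.9 and by 1.03 to 13.0 percentage points. At 77.9 to 78.9 kb, 3 windows of the same intron, also chosen after their values were seen, had lower means in OVA-induced mice (differences of -9.97 to -5.31 points). By the likelihood ratio test 0 of the 3 were called, and their exposed and saline mice overlapped.

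**Figure D3:**
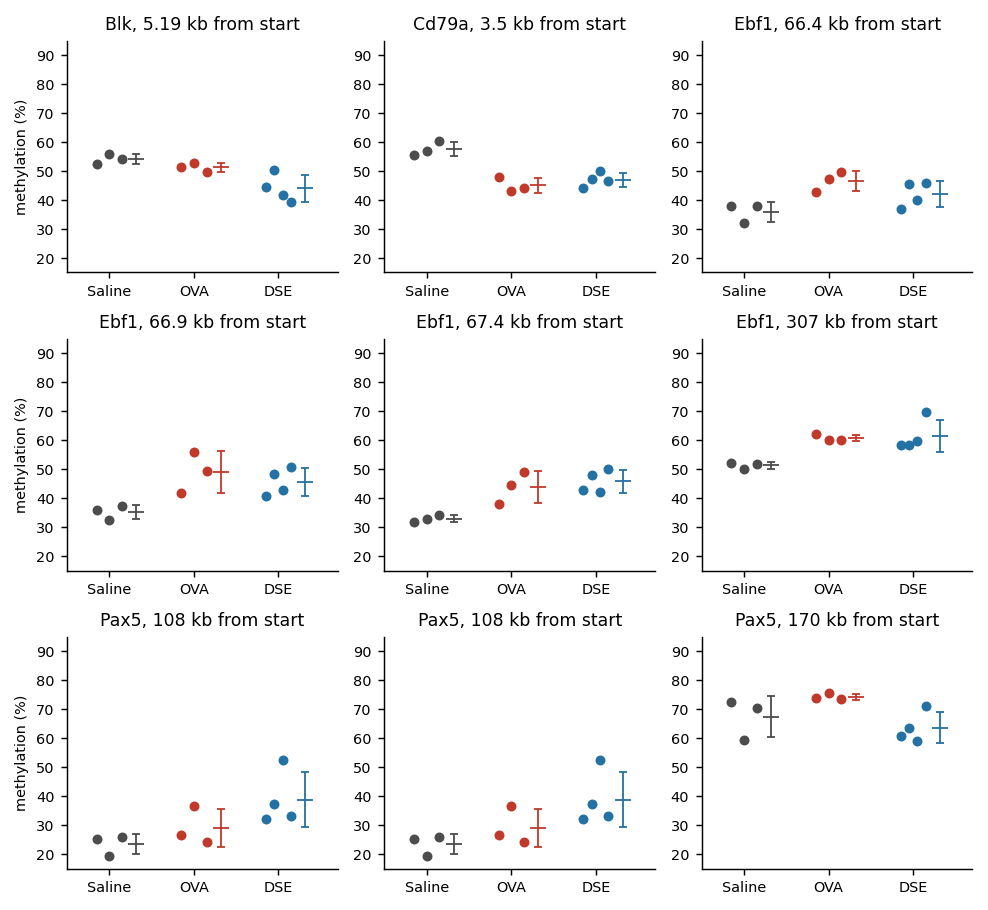
Methylation (%) by mouse in the 9 windows called in any comparison, with the gene and the distance from its start site above each panel. Points are single mice, and bars are the mean ± SD of 3 saline mice, 3 OVA-induced mice and 4 DSE-treated mice. The Cd79a window is lower and the Ebf1 windows at 66.9, 67.4 and 307 kb are higher in every OVA-exposed mouse than in any saline mouse, and the 2 Pax5 panels at 108 kb show the same calls.

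The same question was put to the DSE-treated mice, which were also given OVA. In DSE vs. saline, 5 of 214 member windows were hyper methylated and 2 hypo methylated (2.34% and 0.935%), with 4.95% and 3.07% over all windows. These comparisons share the saline mice with OVA vs. saline, so their values are given side by side only. The median difference was 1.18 points in member windows and 0.721 in all windows, and 7 of 207 member windows had a limma adjusted p under 0.05, with 8.73% over all windows. Besides the Cd79a window and the Ebf1 windows at 66.9 and 67.4 kb, the calls were at a second place in Ebf1, in Pax5 and in Blk.

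The second Ebf1 place (chr11:44924501-44925500, exon 10 and intron 10, 18 CpGs, 585 to 800 calls) was at 52.0%, 50.1% and 51.9% in saline, 62.0%, 60.2% and 60.1% in OVA-induced, and 58.3%, 58.3%, 59.6% and 69.8% in DSE-treated mice. The OVA-induced mice were close to each other and 9.49 points above saline, just under the limit. DSE-treated mouse 4 stood 10 points or more above its group, and without it the DSE difference fell from 10.4 to 7.35 points and the call was lost, as it was without saline mouse 2 (9.86 points). Limma's adjusted p for OVA-exposed against saline was 0.0446.

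At Pax5, 108 kb into the gene (chr4:44602001-44603000, intron 7), the saline mice had 25.2%, 19.5% and 25.8%, the OVA-induced mice 26.5%, 36.6% and 24.1%, and the DSE-treated mice 32.3%, 37.2%, 52.6% and 33.3%. All DSE-treated mice were above all saline mice, and the OVA-induced mice overlapped both groups. The difference of 14.6 points in DSE vs. saline rested on 83 to 131 calls per mouse (adjusted p = 5.85e-05, limma adjusted p = 0.0615). The neighbouring called window holds the same calls. At Blk, in intron 1 and 5.19 kb from the start site (chr14:63411501-63412500, 180 to 288 calls), the saline mice had 52.4%, 56.0% and 54.3%, the OVA-induced mice 51.4%, 52.8% and 49.8%, and the DSE-treated mice 44.5%, 50.4%, 41.7% and 39.5%. The DSE-treated mice were below the saline mice, by 10.1 points in pooled calls (difference -10.08, adjusted p = 0.000429, limma adjusted p = 0.0431). The call was lost when DSE-treated mouse 3 or 4 or saline mouse 2 or 3 was left out (differences of -9.99 to -8.11 points).

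The DSE-treated mice were then compared with the OVA-induced mice, since all of these had OVA. Of 214 member windows, 0 were hyper methylated and 1 was hypo methylated by the likelihood ratio test, with 0.898% and 0.725% of all windows called. At an unadjusted p under 0.05 the same test, which treats every call as independent, gave 23 higher and 23 lower member windows. An F test scaled by the spread between mice gave 2 higher and 5 lower. For neither test was the count over all windows made at this level. Limma called 0 of 207 member windows at an adjusted p under 0.05, beside 0.475% of all windows. At an unadjusted p under 0.05 limma gave 3 higher and 5 lower member windows, beside 41808 of 421759 windows in either direction. The median difference was 0.159 points in member windows and -0.0354 over all windows.

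The one hypo methylated window lay 170 kb into Pax5 (chr4:44540501-44541500, intron 8, 113 to 210 calls). The saline mice had 72.4%, 59.3% and 70.5%, the OVA-induced mice 73.9%, 75.5% and 73.5%, and the DSE-treated mice 60.9%, 63.5%, 59.0% and 71.2%. DSE-treated mice lay below OVA-induced mice without overlap (exact permutation p = 0.0571, the smallest for 3 mice against 4), and saline mice spanned both. The difference of -10.4 points (adjusted p = 0.00160) was no longer called without DSE-treated mouse 1 or 3 or OVA-induced mouse 2, and limma's adjusted p was 0.293. A window 2.6 kb before the Ebf1 start (chr11:44615001-44616000, 55 to 102 calls) just missed a call (difference -13.7, likelihood ratio adjusted p = 0.0107, limma adjusted p = 0.236). It had 41.33%, 49.1% and 51.9% in saline, 63.4%, 46.0% and 48.5% in OVA-induced, and 41.25%, 35.1%, 36.6% and 41.2% in DSE-treated mice. At the Cd79a and Ebf1 windows that differed between OVA-induced and saline mice, the DSE-treated mice overlapped the OVA-induced mice. The pooled differences were 1.77 points at Cd79a, and -3.72 and 2.53 points at the Ebf1 windows 66.9 and 67.4 kb into the gene, with limma adjusted p-values of 0.878, 0.851 and 0.901. By the likelihood ratio test the adjusted p at 66.9 kb was 0.0289. At the called Ebf1 window 66.4 kb into the gene, DSE-treated mice also overlapped saline mice. They were below OVA-induced mice there in pooled calls (difference -4.26, likelihood ratio adjusted p = 7.35e-05, limma adjusted p = 0.712), which stayed under the 10-point limit.

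Taking the 7 OVA-exposed mice together, 21 of 207 member windows had every exposed mouse above every saline mouse and 3 had every exposed mouse below. These shares of 10.1% and 1.45% stand beside 9.53% and 4.72% of all windows. The 21 were 12 windows of Ebf1, 7 of Pax5 and 2 in the downstream flank of Blk, and the 3 were the 2 Cd79a windows and 1 window before the Ebf1 start. Cd22, Cd79b and Cr2 had none in either direction. By limma 11 member windows had an adjusted p under 0.05 in this contrast, 8 higher and 3 lower, with 10.4% of all windows in either direction. The lower ones were the same 2 Cd79a windows and 1 Ebf1 window, and the higher ones were 5 windows of Ebf1 and 3 of Pax5.

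Some of these windows differed by less than the 10-point limit. The 3 that follow were picked among those that limma called, after their values were seen. In Pax5 intron 8 (chr4:44557001-44558000, 25 CpGs) the saline mice had 8.32%, 11.6% and 6.67%, the OVA-induced mice 15.4%, 16.7% and 16.2%, and the DSE-treated mice 13.3%, 18.8%, 15.7% and 14.3%. All exposed mice were higher, by 6.92 points on average (limma adjusted p = 0.0138). In the CpG-dense window of Pax5 intron 5 (chr4:44663501-44664500, 69 CpGs) they had 9.06%, 5.72% and 7.97% in saline, 9.84%, 17.4% and 14.8% in OVA-induced, and 12.2%, 16.2%, 11.3% and 18.4% in DSE-treated mice, again without overlap (limma adjusted p = 0.0330). About 4.1 kb before the Ebf1 start (chr11:44613501-44614500) the saline mice had 20.05%, 21.8% and 22.5%, the OVA-induced mice 16.1%, 15.8% and 16.1%, and the DSE-treated mice 16.8%, 18.0%, 17.02% and 16.9%. All exposed mice were lower there, by 4.77 points (difference -4.77, limma adjusted p = 0.0258).

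For whole genes, the percentages of windows that do not overlap were averaged per mouse and compared by limma over 26669 RefSeq genes. Of the members, 5 had the 3 windows required, Pax5 (42 windows), Ebf1 (37), Blk (6), Cd79a (5) and Cd22 (4). The saline mice averaged 48.9%, 48.4% and 49.0% at Ebf1, the OVA-induced mice 51.1%, 51.7% and 52.2%, and the DSE-treated mice 49.96%, 51.6%, 51.0% and 51.8%. All exposed mice were above all saline mice. Ebf1 was 2.91 ± 0.754 points higher (SE) in OVA vs. saline (adjusted p = 0.0294), 2.33 ± 0.705 points higher in DSE vs. saline (adjusted p = 0.0393) and 2.62 ± 0.639 points higher in OVA-exposed mice (adjusted p = 0.0154). DSE-treated and OVA-induced mice differed by -0.58 ± 0.705 points (adjusted p = 0.862). The Ebf1 call depended on the scale: centred on the mean window methylation of each mouse, the difference in OVA-exposed mice was 1.47 points with an adjusted p of 0.0728. On M-values the adjusted p was 0.149, over promoter windows alone it was 0.283 and without saline mouse 2 it was 0.0684.

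Ebf1 was thus 1 of 5 members called higher in OVA vs. saline, with 10.8% of all genes, in DSE vs. saline, with 16.3%, and in OVA-exposed against saline, with 19.0%. By limma 0 members were called lower (0 also at an unadjusted p under 0.05), beside 3.48%, 4.69% and 5.36% of all genes. In DSE vs. OVA 0 of 5 members were called by limma in either direction and 0 had an unadjusted p under 0.05, beside 0.247% of all genes called higher and 0.0712% called lower. After centring, 41.0% of the calls over all genes in OVA vs. saline were higher, whereas 75.7% were without it, and in OVA-exposed mice 43.1% instead of 78.0%. The median difference of all genes in OVA-exposed mice moved from 1.04 to -0.10 points with it.

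**Figure D4:**
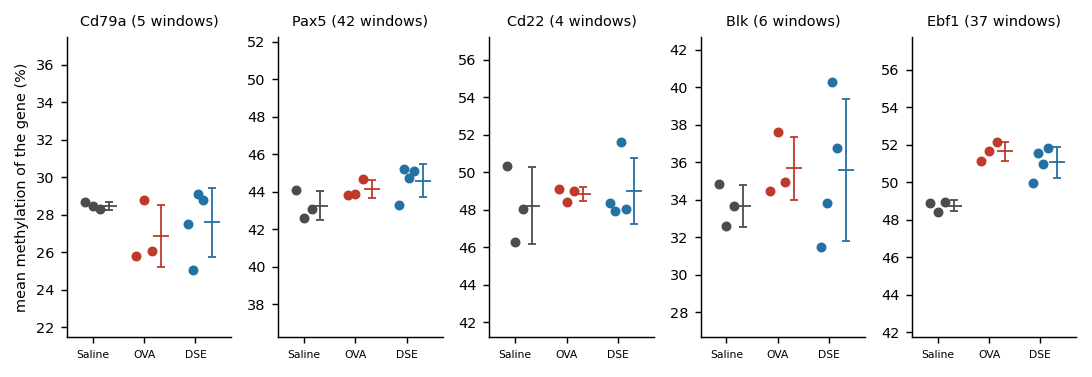
Mean methylation (%) of 5 B cell identity genes by mouse, over windows that do not overlap, with mean ± SD for 3 saline mice, 3 OVA-induced mice and 4 DSE-treated mice. Each axis spans 16 percentage points around the saline mean and does not start at 0. At Ebf1 all exposed mice lie above saline, and at the other genes the groups overlap.

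The other members showed no call. Pax5 was at 43.3% ± 0.779 in saline, 44.1% ± 0.486 in OVA-induced mice and 44.6% ± 0.884 in DSE-treated mice (SD, n = 3, 3 and 4), with a difference of 1.11 ± 0.685 points (SE) in OVA-exposed mice (adjusted p = 0.251). Of its 86 windows with full depth, 55 had a higher mean in OVA-induced than in saline mice and 66 in DSE-treated than in saline mice. Neighbouring windows overlap and share calls, and the same count over all windows was not made. The median difference over all windows was also above 0, at 0.732 and 0.721 points. Cd79a was at 28.5% ± 0.213, 26.9% ± 1.65 and 27.6% ± 1.84. Its gene mean leaves out the called window but includes the next one, which overlaps it (chr7:24901001-24902000) and was 8.58 points lower in OVA-exposed mice (difference -8.58). The mean also includes windows of the flank that overlap Arhgef1. Its difference in OVA-exposed mice was -1.24 ± 0.947 points (adjusted p = 0.357). Cd22 was at 48.2% ± 2.05, 48.8% ± 0.375 and 49.0% ± 1.75, and Blk at 33.7% ± 1.12, 35.7% ± 1.67 and 35.6% ± 3.80, with adjusted p-values of 0.647 and 0.382 in the same contrast. At Blk the spread among DSE-treated mice, from 31.5% to 40.3%, was wider than any difference between group means.

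Other genes of B cell development and signalling were listed beside the members. Of 40 such genes 36 were in the fit, and in OVA-exposed mice 3 were called higher and 6 lower, beside 19.0% and 5.36% of all genes, with a median difference of -0.10 points beside 1.04 over all genes. The lower genes were Ikzf1, which encodes the lymphoid factor Ikaros, Bank1 (a scaffold of B cell receptor signalling), Syk (the kinase that the receptor recruits), Cd180, Fcrla and Cd24a. Ikzf1 fell from 59.4% ± 0.147 in saline to 52.2% ± 1.88 in OVA-induced mice and 52.6% ± 1.56 in DSE-treated mice (adjusted p = 0.00160), and Bank1 from 61.3% ± 1.72 to 57.3% ± 1.91 and 53.6% ± 1.16 (adjusted p = 0.00413). The higher genes were Irf8, Prdm1, which encodes the plasma cell factor BLIMP1, and Vpreb3. Prdm1 rose from 49.6% ± 0.397 to 52.0% ± 0.147 and 51.5% ± 0.202 (adjusted p = 0.0208).

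Genes of other cell types were listed in the same way, and the counts below stand beside the 19.0% of all genes called higher and 5.36% called lower in OVA-exposed mice. Of 14 pan-leukocyte genes in the fit, 8 were called lower and 1 higher in OVA-exposed mice, with a median difference of -3.27 points. The mean over this list was 56.8% to 57.6% in saline, 53.5% to 53.7% in OVA-induced mice and 52.5% to 54.2% in DSE-treated mice, without overlap between exposed and saline. Of 12 lung endothelial genes 9 were called higher and 0 lower, with a median of 4.98 points, and the mean over the list was 39.0% to 40.1% in saline, 42.8% to 45.1% in OVA-induced mice and 42.8% to 44.5% in DSE-treated mice. Of 12 lung epithelial genes 4 were higher and 0 lower (median 1.56), and of 13 T cell genes 2 were higher and 0 lower (median 0.59). Ikzf1 is in the pan-leukocyte list as well as among the B cell genes. Set against the median of 1.04 over all genes, the pan-leukocyte and T cell medians lay below it and the endothelial and epithelial medians above it. Calls of these lists and of the other B cell genes were not recomputed after centring. The part of these lists, and of the cells they mark, in the differences at Cd79a and Ebf1 was not tested. The member genes had a median difference of 1.11 points, near that of all genes, and their mean over the list was 39.7% to 41.4% in saline, 40.9% to 42.1% in OVA-induced mice and 40.1% to 43.3% in DSE-treated mice, with overlap.

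**Figure D5:**
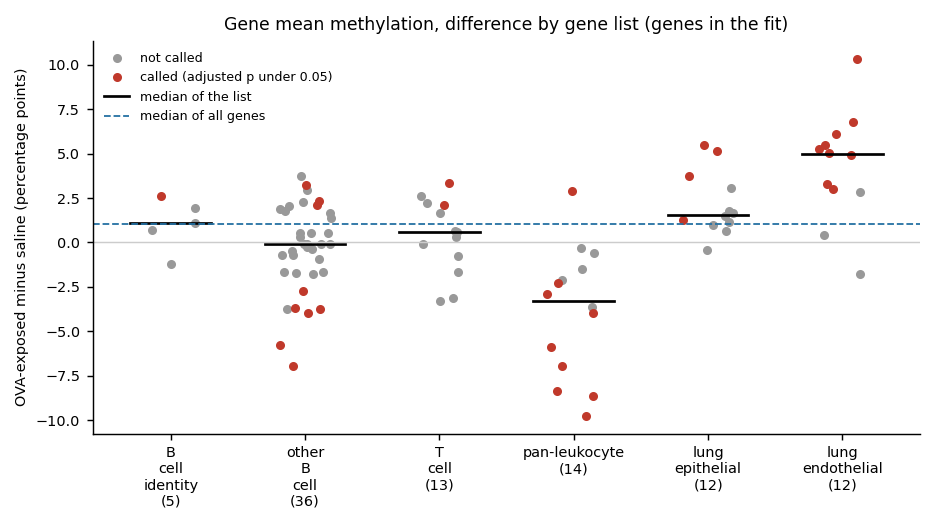
Difference in gene mean methylation between OVA-exposed and saline mice (percentage points, vertical axis) for the genes of 6 lists, with the number of genes in the fit in parentheses. Red points were called by limma (adjusted p under 0.05), black bars are list medians and the dashed line is the median of all genes (1.04). The member median of 1.11 lies near that line, pan-leukocyte genes lie mostly below 0 and endothelial genes mostly above it.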

How the data were processed

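Lung DNA of 10 mice was analysed (3 saline, 3 OVA-induced, 4 DSE-treated). Groups were taken from the sample labels, in which the DSE group is named herb. Per the study's methods, the authors used Cutadapt 1.13 for trimming, Bismark 0.17.0 for mapping to mm10, and methylKit 1.6.0 for summing CpG calls over 1000 bp windows placed every 500 bp. The submitters' processing notes name versions 1.10, 0.19.0 and 1.0.0. The deposited values are counts of all, methylated and unmethylated calls per window and mouse, not normalized, with at least 10 calls in every mouse.

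Windows needed at least 20 calls in a mouse and 2 such mice per group. Window differences between groups were tested on pooled calls with a logistic model and its likelihood ratio, only the mice of the compared groups entering, and called at a Benjamini-Hochberg adjusted p under 0.01 over all windows and 10 percentage points. In addition, limma 3.58.1 (R 4.3.3) with a mean-variance trend was fitted to all 10 mice, on M-values of windows (log2 of methylated plus 1 over unmethylated plus 1) and on mean percentages of genes with at least 3 windows that do not overlap (span and 5 kb each side), called at an adjusted p under 0.05. OVA-exposed is the mean of the OVA and DSE group means in limma, while mean differences in single windows average over the 7 mice. Single windows were compared by two-sided exact permutation tests of group means, which cannot go below 0.1 for 3 mice against 3, 0.0571 for 3 against 4 and 0.0167 for 3 against 7. Python 3.11.15 with numpy 2.4.6, scipy 1.17.1 and pandas 2.3.3 was used. Scripts were tested on simulated data.

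Windows described were, per gene, the one holding the start of the longest RefSeq transcript with its centre nearest that start. Added to it were the 3 called windows with the largest difference per gene and comparison (1 of overlapping ones) and the lowest and highest in saline per gene. The last were the 5 with the largest difference without overlap between exposed and saline mice. Windows outside this rule are the called one at 66.4 kb in Ebf1, those picked by limma and those described as neighbours. Also outside it, and chosen after their values were seen, are Ebf1 windows at 64.9 to 68.9 kb, at 77.9 to 78.9 kb and 2.6 kb before the start. Members and lists were chosen with earlier results of these data known. The labels name no batch. Mice of a group differed beyond counting error, with a mean chi-square per window of 2.79 to 4.12, and no library was a copy of another. Nothing says whether the mice shared cages or litters. Alternatives were other call minima, tests, difference limits, flanks, centring, scales, a replicate block and each mouse left out.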

Additional observations from a re-analysis of the deposited data

Results flagged for a closer look

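Of 32 windows and genes named for these members and measured in the 4 DSE-treated mice, 4 had a mouse whose gap to the nearest other, divided by the range, was above Dixon's 95% critical value. Chance flags about 1 in 20 such groups. Just before the Ebf1 start (chr11:44617001-44618000) DSE-treated mouse 2 had 0.820%, and the others 1.097% to 1.123%. In the most methylated Ebf1 window (chr11:44775001-44776000) DSE-treated mouse 4 had 86.1%, and the others 100%, from 15 to 36 calls per mouse. With the others tied at 100%, any lower value would pass the limit, so this flag carries no information. At Ebf1 exon 10 (chr11:44924501-44925500) DSE-treated mouse 4 had 69.8%, and the others 58.3% to 59.6%. In the gene mean of Cd22, DSE-treated mouse 3 had 51.6%, and the others 48.0% to 48.4%.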

How the results depend on the processing

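The sensitivity of the counts is given in the order OVA vs. saline, DSE vs. OVA, DSE vs. saline, where the reported counts were 3, 0 and 5 hyper methylated and 1, 1 and 2 hypo methylated windows. An F test with a scale factor, a limit of 20 percentage points and limma at an adjusted p under 0.01 each gave 0 in all. The F test called 0 of all windows in any comparison, so its count carries no information. The counts of 0 at 20 points and under limma at 0.01 say little about the members either: the 20-point limit called 0.106% to 0.340% of all windows, and limma at 0.01, before any limit on the difference, held for 2, 52 and 5459 of 421759 windows. At an unadjusted p under 0.05 the F test gave 24, 2 and 27 higher and 4, 5 and 4 lower member windows. Its count over all windows at this level was not made. Limma at 0.05 with 10 points gave 0 hyper in OVA vs. saline, 0 hypo in DSE vs. OVA and 1 hyper in DSE vs. saline. For windows, centring took the difference in mean window methylation between the groups off each difference and left the p-values unchanged. It gave 1 hyper and 4 hypo in OVA vs. saline and 3 hyper in DSE vs. saline. Windows that do not overlap gave 0 hypo in every comparison and 2 hyper in DSE vs. saline. Without Ebf1 there were 0 and 2 hyper against saline, and flanks of 10 kb gave 4 hypo in DSE vs. saline. Leaving out each mouse gave 1 to 5 hyper (5 without OVA-induced mouse 1, 1 without mouse 2 or 3) and 2 to 3 hypo (for every mouse) in OVA vs. saline. It gave 0 to 1 hyper (1 without DSE-treated mouse 2) and 0 to 1 hypo (0 without DSE-treated mouse 1 or 3) in DSE vs. OVA. In DSE vs. saline it gave 3 to 7 hyper (3 without DSE-treated mouse 4) and 0 to 3 hypo (0 without saline mouse 3, 1 without DSE-treated mouse 1 or 3).

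Of the 5 member genes, the single call, Ebf1, became 0 over promoter windows alone and after centring in all 3 comparisons with saline, and on M-values in OVA vs. saline and OVA-exposed against saline. Leaving out 1 mouse gave 0 to 1: in OVA vs. saline 0 without any saline mouse or OVA-induced mouse 2 or 3, in DSE vs. saline 0 without any saline mouse, OVA-induced mouse 2 or DSE-treated mouse 2, 3 or 4, and in OVA-exposed mice 0 without saline mouse 2. Ebf1 kept its direction against saline in all 19 alternatives of each comparison. With the replicate number as a block, Ebf1 was lost (0 calls) against saline for OVA-induced and for DSE-treated mice alike, and windows gave 2 hypo in DSE vs. OVA and 3 hyper in DSE vs. saline. Deviations of mice with the same number correlated between -0.024 and 0.080, so the numbers were not taken to pair mice. The cause of these changes was not tested. With 3 to 4 mice per group, the called windows at Pax5 and Blk rest on only 83 to 288 calls per mouse.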
